A study of Mus musculus with 2 samples.

Results

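The cells described here are the Lgr5-positive epithelial cells of adenoma organoids grown without RSPO1-Fc. They were selected on their own Lgr5 signal: a control barcode had to hold at least 9810 unique molecular identifiers (UMIs, each standing for 1 captured RNA molecule), at most 20% mitochondrial UMIs, at least 5 UMIs of the epithelial adhesion gene Epcam and at least 3 UMIs of Lgr5. This left 594 of 1865 control epithelial cells (31.8%), out of 2251 control cells within the depth and mitochondrial limits and 5036 cells above the depth limits in the series. A further 851 control epithelial cells held 0 Lgr5 UMIs and 420 held 1 or 2. Because Lgr5, Epcam and depth chose the cells, their values are given as a description.

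Single-cell 3′ RNA sequencing was applied to intestinal adenoma organoids from C57BL/6 mice of genotype ApcMin/+ aged 17 weeks. The Min allele of Apc was carried by both cultures, so no culture with 2 intact Apc alleles served as a reference. One culture was the control and the other received RSPO1-Fc, R-spondin 1, which strengthens Wnt signalling, joined to an Fc fragment, at 10 µg/ml per its protocol (a second label writes the amount in milligrams). How many mice gave the organoids is not given in the sources used here. Each group held 1 library, and cells of a library are not replicates. No test was therefore run, and all intervals are 95% intervals for counting error only.

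Lgr5 encodes a receptor for R-spondins that sits on stem cells at the base of the intestinal crypt. R-spondin bound to such receptors removes the ubiquitin ligases Rnf43 and Znrf3 from the cell surface, which keeps Wnt receptors in place. Lgr5 is itself a target of Wnt/β-catenin signalling, and loss of Apc function turns that pathway on without a ligand. In mouse adenomas Lgr5 has been used to mark a stem-like fraction of the tumour cells.

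Lgr5 (GRCm38, chromosome 10, 115450311 to 115587780, minus strand) had 5072 UMIs in the 594 cells, which was 89.8% of the 5648 Lgr5 UMIs of all control epithelial cells. The median was 6 UMIs per cell, with quartiles of 4 and 10 and a highest value of 79. The 10 highest cells held 9.37% of these UMIs, a share that the required minimum of 3 Lgr5 UMIs per cell itself keeps low. Just inside the threshold, 114 cells held exactly 3 Lgr5 UMIs, and just outside it 156 cells held 2 and 264 held 1. Thinned to 9810 UMIs each, 82.3% of the selected cells still showed a Lgr5 UMI (489 of 594). Cells with at least 20 macrophage marker UMIs and at most 1 Epcam UMI, which should lack Lgr5, showed a UMI of it in 1 of 175 (0.571%) and after thinning in 0 of 175, which allows a share of cells with a UMI of up to 1.71% (3 of 175). In barcodes of over 100 and up to 500 UMIs, taken as free RNA, Lgr5 summed to 36.2 CPM, beside 191 CPM in the selected cells and 30.9 CPM in epithelial cells with 1 Lgr5 UMI. Median depths before thinning were 38250 and 15083 UMIs. Of the epithelial genes other than Epcam, which the selection used, the keratin gene Krt8 was seen at equal depth in 99.8%, Krt18 in 100% and the claudin gene Cldn7 in 98.5% of the selected cells. In the macrophage-marked cells the shares for Krt8, Krt18 and Cldn7 were 16.6%, 20.6% and 9.71%. Cdx2, a transcription factor of intestinal identity, was low, at 2.87 CPM against 9.83 CPM in comparison cells without Lgr5. Of the 7 measured genes of the epithelial list, Epcam left out, 6 were below 0 as log2 ratios against those comparison cells (median -0.21).

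**Figure D1:**
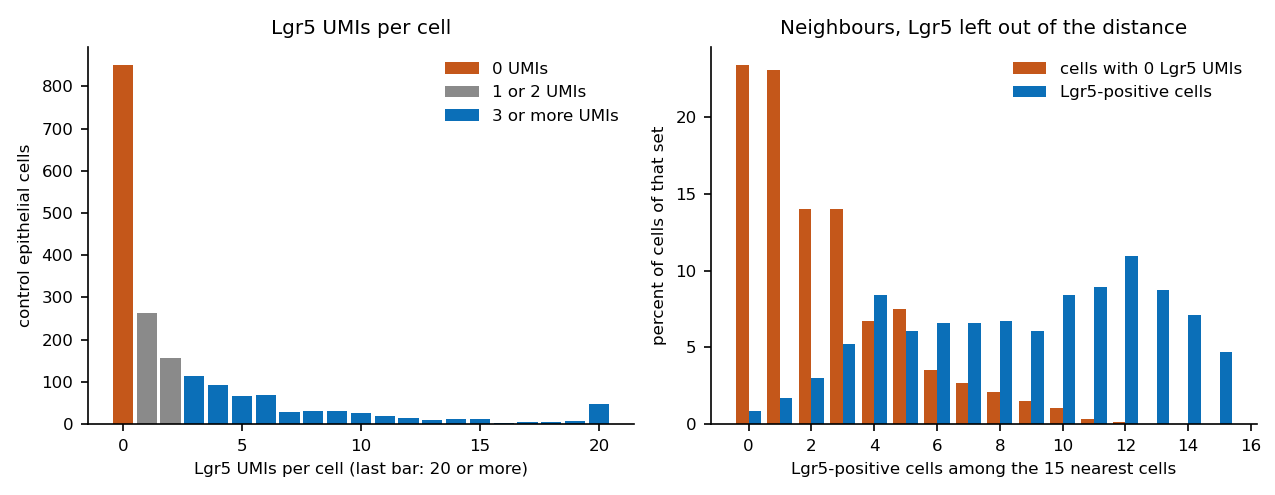
Left, number of control epithelial cells by Lgr5 UMIs per cell, with cells of 20 or more in the last bar. Right, percent of Lgr5-positive cells (blue) and of cells with 0 Lgr5 UMIs (orange) by the number of Lgr5-positive cells among their 15 nearest cells, Lgr5 itself left out: Lgr5-positive cells averaged 58.6% Lgr5-positive neighbours and cells with 0 Lgr5 UMIs 16.3%.

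The selected cells were deeper than the rest. They had a median of 38250 UMIs and 6453.5 genes, against 25195 UMIs and 5166 genes in all cells with 0 Lgr5 UMIs. Each was paired with an unused cell of 0 Lgr5 UMIs closest in total UMIs, which brought the comparison cells to a median of 31395 UMIs but left only 235 of 594 pairs within 10%. Mitochondrial shares were close, at 5.89% and 6.34%. Values below compare UMIs summed over the 594 cells with UMIs summed over the 594 comparison cells, each scaled to CPM (UMIs per 1000000 UMIs). The part of the remaining depth gap in them was not tested. With pairs held within 10% (525 pairs, medians of 34166 and 33314 UMIs) no named gene with a 1.5-fold difference changed direction. A kept direction does not measure that part, and sizes could differ. The median log2 ratio of G2 and M phase genes was -0.46 with these pairs and -0.30 with all pairs.

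The 594 cells resembled each other in genes other than Lgr5. On average 58.6% of the 15 nearest cells of a Lgr5-positive cell were Lgr5-positive too, against a share of 31.8% among all epithelial cells, and the value was 57.8% after every cell was thinned to equal depth. Around cells with 0 Lgr5 UMIs it was 16.3%, around those with 1 or 2 it was 31.1%, and around those with 10 or more it was 76.4%. A majority of Lgr5-positive neighbours surrounded 366 of the 594 cells (61.6%) and 44 of the 851 cells with 0 Lgr5 UMIs (5.17%). These shares are a description, since neighbours come from 1 library.

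Of 6637 genes with at least 20 CPM in either set, 249 (3.75%) were at least 1.5-fold higher in Lgr5-positive cells and 162 (2.44%) at least 1.5-fold lower. At 2-fold the counts were 94 and 63. The higher genes differed in how they were spread over cells. In 215 of the 249 higher genes, the 10 highest Lgr5-positive cells held under 25% of the gene's UMIs in that set, while in 21 they held 50% or more.

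The broadly higher genes were led by Cd177, which encodes a surface glycoprotein best known from neutrophils. Cd177 stood at 246 CPM in Lgr5-positive cells and 31.7 CPM in comparison cells, 7.74-fold higher (7.15 to 8.37). Its per-cell median was 134 CPM (quartiles 31.1 and 330) against 0 (0 and 27.9), so the interquartile ranges did not overlap. At equal depth 59.9% of Lgr5-positive and 17.5% of comparison cells showed a Cd177 UMI, and 3 of 175 macrophage-marker cells did (1.71%). The neutrophil genes S100a8 (46.1 against 134 CPM) and S100a9 (63.1 against 174 CPM) were lower in Lgr5-positive cells, with log2 ratios of -1.52 and -1.45. Without cells holding 5 or more UMIs of other cell types' markers these ratios were -0.45 and -0.37, short of 1.5-fold.

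Wfdc18, a small secreted protein of the whey acidic protein family, was 4.13-fold higher (4.03 to 4.23). Lrg1, a secreted leucine-rich glycoprotein, was 5.01-fold higher (4.64 to 5.43) and was seen at equal depth in 47.3% against 16.7% of cells. Of the 175 macrophage-marker cells thinned alike, 4 showed Lrg1. The lipase-like genes Pnliprp1 (4.69-fold, 4.52 to 4.86) and Pnliprp2 (3.53-fold, 3.42 to 3.65) were higher as well, though per cell they were uneven: Pnliprp2 had a median of 45.9 CPM and an upper quartile of 491 CPM in Lgr5-positive cells. Both genes together reached 2 UMIs per 10000 in 295 of the 594 Lgr5-positive (49.7%) and 119 of the 594 comparison cells (20.03%).

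Several differences depended on these lipase-positive cells. With the 299 Lgr5-positive cells under that limit, paired anew with cells of 0 Lgr5 UMIs also under it, the log2 ratio of Prss56, a serine protease gene, was 0.61 (2.98 with all cells), that of Notum 0.19 (0.60), that of Cd44 -0.33 (-0.63) and that of Ccnd1 -0.44 (-0.60). Cd177 was then at 2.82 (2.91), Lrg1 at 2.58 (2.29), Smoc2 at 1.23 (1.04), Prox1 at 0.75 (0.94) and Mal at -3.15 (-2.83). This choice of cells was made after seeing the data.

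Further broadly higher genes, singled out after their values were seen except for Prelp, were the following. Spock2, a secreted proteoglycan, was 2.68-fold higher (2.62 to 2.75), the intermediate filament gene Vim 2.27-fold (2.23 to 2.32), the collagen gene Col9a3 4.58-fold (4.05 to 5.20) and Prelp, a leucine-rich matrix protein, 3.59-fold (2.96 to 4.37). Without the lipase-positive cells the log2 ratio of Spock2 was 0.85 (1.42 with all cells) and that of Vim 0.64 (1.18). Vim is also a gene of stromal and immune cells. The fibroblast marker list summed to 65.9 CPM in Lgr5-positive and 65.5 CPM in comparison cells, its range per cell was 0 to 1032 and 0 to 845 UMIs, and none of its markers was at 0. Pericyte markers summed to 59.0 and 49.1 CPM and endothelial markers to 54.9 and 53.2 CPM. Single markers went further apart: the pericyte gene Rgs5 had 713 against 283 UMIs, with 82.5% of the 713 in 10 cells, and the endothelial claudin gene Cldn5 had 573 against 292 UMIs. Cells with 5 or more pericyte marker UMIs numbered 42 among Lgr5-positive and 13 among comparison cells, and for endothelial markers 50 and 41. Without all cells holding 5 or more UMIs of other types' markers, the log2 ratio of Vim was 1.26 and that of Spock2 1.49.

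The promoter of a Wnt target was set beside those of 2 genes that were higher in Lgr5-positive cells. Sp5, a transcription factor gene activated by Wnt/β-catenin, stands beside Prss56 and Cd177, the gene with the largest broad difference. The lines below give the 250 bases before each start from RefSeq (GRCm38.p6), read along the gene's strand. Capitals mark the core letters bound by TCF/LEF factors, searched on both strands. The words were CTTTGAT, found in Sp5, CTTTGAA, found in Prss56, the form CTTTGTT, whose reverse is in Sp5, and lastly CTTTGTA.
Sp5, chr2:70474673-70474922, plus strand: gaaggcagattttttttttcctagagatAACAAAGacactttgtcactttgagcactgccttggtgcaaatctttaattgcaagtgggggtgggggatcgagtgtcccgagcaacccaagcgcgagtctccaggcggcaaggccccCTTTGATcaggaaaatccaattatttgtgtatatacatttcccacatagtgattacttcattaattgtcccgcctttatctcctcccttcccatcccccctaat
Prss56, chr1:87183064-87183313, plus strand: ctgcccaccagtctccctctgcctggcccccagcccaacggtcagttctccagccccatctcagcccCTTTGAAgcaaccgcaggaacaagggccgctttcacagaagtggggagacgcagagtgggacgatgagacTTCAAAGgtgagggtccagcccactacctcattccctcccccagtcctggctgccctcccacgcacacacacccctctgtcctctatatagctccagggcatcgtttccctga
Cd177, chr7:24760312-24760561, minus strand: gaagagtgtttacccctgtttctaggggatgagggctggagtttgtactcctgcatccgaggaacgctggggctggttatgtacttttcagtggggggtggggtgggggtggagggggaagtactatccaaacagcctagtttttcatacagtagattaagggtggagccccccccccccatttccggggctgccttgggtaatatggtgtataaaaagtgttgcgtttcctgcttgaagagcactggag
Sp5 and Prss56, shown because they hold matches, had 2 each and Cd177 had none. Of 12 genes looked up, 9 had a promoter in the table, and the other 6 of these had no match: the Wnt targets Axin2 and Prox1, and Wfdc18, Lrg1, Pnliprp1 and Pnliprp2. Such letters stood in 14.8% of all 32851 promoters of that table, in 16.4% of the 225 promoters of the higher genes and in 11.9% of the 176 promoters of the lower genes. Promoters were found for 175 of the 249 and 123 of the 162 genes. A match describes the letters only.

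Prss56 was 8.65-fold higher in Lgr5-positive cells (77.2 against 8.92 CPM, 7.47 to 10.1), but its 10 highest cells held 51.0% of its UMIs and, as given above, its ratio was much smaller without the lipase-positive cells. Sp5 stood at 56.7 against 41.3 CPM, a ratio of 1.37 (1.26 to 1.49).

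Most Wnt target genes differed little between cells with and without Lgr5. Of 22 list members with at least 5 CPM, 16 were above 0 on the log2 scale, with a median of 0.19 beside 0.04 for all 10449 genes at that level. Over all those genes 58.3% were above 0. Of the 20 members with at least 20 CPM, 2 passed 1.5-fold upward, Prox1 and Notum, and 2 downward, Ccnd1 and Cd44. Of all genes at that level 3.75% passed upward and 2.44% downward. Below that level Lgr6, a relative of Lgr5, stood at 5.58 against 14.4 CPM (2.59-fold lower, 2.12 to 3.17) and Apcdd1, a Wnt antagonist at the cell surface, at 7.88 against 12.9 CPM. Prox1, a homeobox factor of intestinal tumours, was 1.92-fold higher (672 against 350 CPM, 1.87 to 1.98), with per-cell quartiles of 317 and 1026 CPM against 96.9 and 576 CPM. Notum, a secreted enzyme that inactivates Wnt ligands, was 1.52-fold higher (1.47 to 1.58), close to the 1.5-fold limit. It fell short of that limit against all cells with 0 Lgr5 UMIs (log2 ratio 0.47) and with members from 2 Lgr5 UMIs on (0.54), as did Ccnd1 (-0.48 and -0.52).

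The feedback inhibitors stood close to even. Axin2, a scaffold of the β-catenin destruction complex, was at 342 against 298 CPM (1.15-fold, 1.11 to 1.18), and its per-cell quartiles of 206 and 467 CPM overlapped those of 164 and 421 CPM. Nkd1, an inhibitor inside the cell, was at 1.22-fold (1.20 to 1.25), Rnf43 at 1.16-fold (1.11 to 1.22) and Znrf3 at 1.14-fold (1.07 to 1.22). Wif1, a secreted Wnt-binding antagonist, was at 1.32-fold (1.29 to 1.34). The adhesion gene Cd44 and the cyclin gene Ccnd1 were lower, by 1.56-fold (1.46 to 1.66) and 1.51-fold (1.46 to 1.57), and Myc stood 1.46-fold lower (1.31 to 1.62). Lgr4, the relative of Lgr5 that also binds R-spondins, was at 45.2 against 47.2 CPM.

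Crypt stem cell genes did not move as a block. Of 24 measured list members 20 were above 0, with a median log2 ratio of 0.32, beside 58.3% above 0 over all genes. Of the 20 with at least 20 CPM, 5 passed 1.5-fold upward and 1 downward, Gkn3 (22.3 against 34.6 CPM), where 3.75% and 2.44% of all genes did. Smoc2, a matricellular protein of crypt stem cells, was 2.07-fold higher (240 against 116 CPM, 1.98 to 2.17) and was seen at equal depth in 76.4% against 49.8% of cells, and in 3 of 175 macrophage-marker cells. Rgmb, a BMP co-receptor, was 3.04-fold higher (2.59 to 3.59). Ascl2, a transcription factor that controls crypt stem cell identity, was at 29.5 against 30.8 CPM, a ratio of 0.959 with 1 inside its interval (0.864 to 1.06). Olfm4, a marker of crypt base cells, had 0 UMIs in Lgr5-positive and 4 in comparison cells, so no fold is given.

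**Figure D2:**
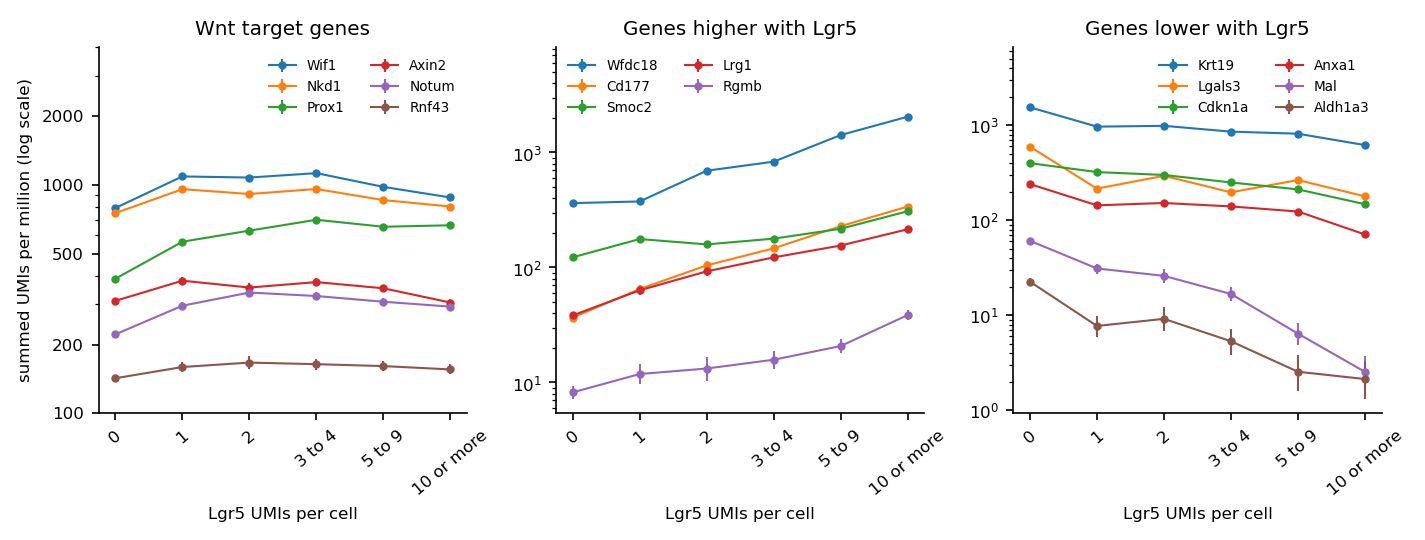
Summed UMIs in CPM (log scale) by Lgr5 UMIs per cell in control epithelial cells, with 95% counting intervals, for Wnt targets, genes higher with Lgr5 and genes lower with Lgr5. Axin2 stood at 311 CPM with 0 and 305 CPM with 10 or more Lgr5 UMIs, while Cd177 stood at 36.7 and 339 CPM and Mal at 60.9 and 2.54 CPM.

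Across rising numbers of Lgr5 UMIs the genes took 3 courses. Cd177 went from 36.7 CPM at 0 Lgr5 UMIs through 64.9 at 1, 104 at 2, 147 at 3 to 4 and 228 at 5 to 9 to 339 CPM at 10 or more. Wfdc18 went from 363 to 2047 CPM. Axin2 was highest in the cells of 1 Lgr5 UMI (380 CPM) and ended at 305 CPM, beside 311 CPM at 0, and Nkd1 likewise ran from 751 through 957 at 3 to 4 to 803 CPM. Mal took the opposite course to Cd177, from 60.9 CPM at 0 through 26.0 at 2 to 2.54 CPM at 10 or more. Median depth went up with the class, from 25195 UMIs at 0 to 54261 at 10 or more. The class of exactly 3 UMIs, just inside the threshold, stood at 133 CPM of Cd177 and the class of 2, just outside, at 104 CPM.

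Most measured list genes of absorptive and squamous epithelium lay below 0 in Lgr5-positive cells. Car1, a carbonic anhydrase of colonic surface cells, was at 2.00 against 56.4 CPM, 28.2-fold lower (21.5 to 37.9). Mal, an apical sorting protein, was 7.88-fold lower (6.82 to 9.15) and was seen at equal depth in 4.55% against 22.7% of cells. Aldh1a3, which makes retinoic acid, was 7.56-fold lower (6.00 to 9.62), and S100g, a calcium-binding protein of absorptive cells, 15.9-fold lower (12.3 to 20.9). All 5 measured enterocyte genes, of 18 listed, were below 0, with a median log2 ratio of -2.61. Per cell the list was closer, with medians of 0.62 UMIs per 10000 in Lgr5-positive and 0.91 in comparison cells. Its upper quartiles were 1.40 and 2.16. By class its median was 0.67 at 0 Lgr5 UMIs, 0.33 at 1 and 0.81 at 10 or more. In the RSPO1-Fc library the median log2 ratio of 7 measured enterocyte genes was -0.08, with 3 above 0. Beside it, 48.0% of all 9790 genes with at least 5 CPM there were above 0, with a median of -0.02.

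Keratins and envelope genes were not uniform. Over 15 alternatives the log2 ratio of Krt4 lay between -2.83 and -1.50 and that of Krt6a between -3.58 and -1.59. Krt7 (-0.26 to -0.16) and Krt8 (-0.30 to -0.10) were slightly below 0. Krt17 (0.12 to 0.98) and the envelope gene Sbsn (0.055 to 0.51) were above 0. Krt14, a keratin of basal stratified epithelium, was 10.3-fold lower (8.45 to 12.7) and Krt19, a keratin of simple epithelium, 2.11-fold lower (757 against 1598 CPM, 2.07 to 2.15). Of 11 measured squamous and surface genes 9 were below 0 (median log2 ratio -1.44), among them Sprr2a3 at 38.8 against 131 CPM. Anxa1, an annexin used as a marker of fetal-like and regenerating epithelium, was 2.12-fold lower (2.02 to 2.22). Of 13 measured genes of that list 9 were below 0, with a median log2 ratio of -0.17. Its sum was near even, at 101 UMIs per 10000 in Lgr5-positive and 99.3 in comparison cells. By class its per-cell median was 100 at 0 and 73.2 at 10 or more Lgr5 UMIs. In the RSPO1-Fc library 11 of 12 measured genes of the list were below 0 (median -0.87), beside a median of -0.02 over all genes there. Of the 12 genes of that list with at least 20 CPM in control, 5 passed 1.5-fold downward, where 2.44% of all genes did. Upward passed 1, Spp1, which encodes osteopontin (54.3 against 18.6 CPM), where 3.75% of all genes did. Cdkn1a, the p21 cell cycle inhibitor, was 1.94-fold lower (1.87 to 2.00), with per-cell quartiles of 38 and 249.9 CPM against 118 and 551 CPM. Lgals3, a galectin, was 3.02-fold lower (2.93 to 3.11).

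Macrophage markers were lower in sum as well. Their list summed to 107 CPM in Lgr5-positive and 221 CPM in comparison cells, its range per cell was 0 to 524 and 0 to 697 UMIs, all 9 measured markers were below 0, and no marker of the list was at 0. Per cell the macrophage list had a median of 0.187 UMIs per 10000 in Lgr5-positive and 0.193 in comparison cells. Lgals3 itself was seen at equal depth in 96.0% of macrophage-marker cells. Its log2 ratio lay between -2.05 and -1.43 over 15 alternatives, among them the one without cells holding other cell types' markers. Without the 193 Lgr5-positive and 161 comparison cells that held 5 or more UMIs of other cell types' markers, the log2 ratios were -1.18 for Krt19 (-1.08 with all cells), -2.84 for Mal (-2.83) and -4.67 for Car1 (-4.26).

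**Figure D3:**
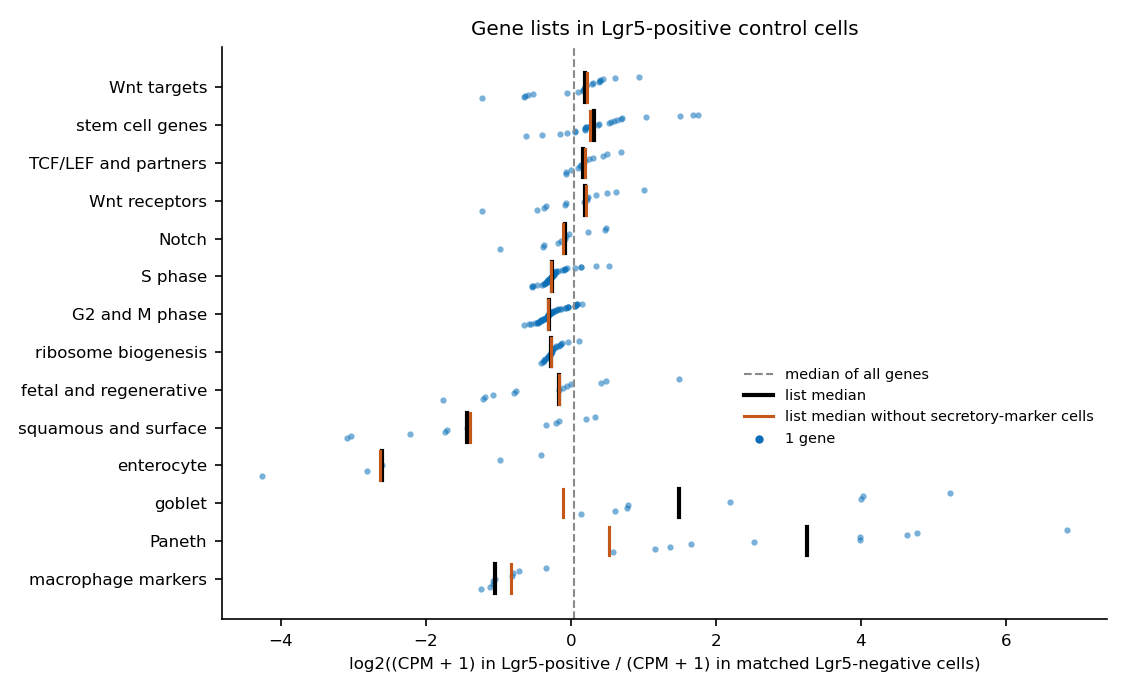
Log2 ratios of single genes (points) in 14 gene lists, Lgr5-positive over matched cells with 0 Lgr5 UMIs, with list medians over all cells (black) and without secretory-marker cells (orange) and the median of all genes (dashed, 0.04). The Paneth median went from 3.26 to 0.52 and the goblet median from 1.49 to -0.11 without these cells, which were selected on genes of these 2 lists, while the Wnt target medians were 0.19 and 0.23.

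Most proliferation genes lay slightly below 0, while the shares of cycling cells gave no clear order. Of 42 S phase genes 37 were below 0, with a median log2 ratio of -0.26, and of 51 measured G2 and M phase genes 44 were below 0, with a median of -0.30. Mki67, a marker of cycling cells, stood at 98.4 against 114 CPM. Against all cells with 0 Lgr5 UMIs instead of the depth-paired ones, the medians were -0.10 and -0.10. Over 15 alternatives they lay between -0.40 and -0.10 and between -0.56 and -0.10. In the RSPO1-Fc library 28 of 42 S phase genes (median 0.07) and 46 of 52 G2 and M phase genes (median 0.18) were above 0. Over all 9790 genes with at least 5 CPM there, 48.0% were above 0, with a median of -0.02. Cells with at least 2 UMIs of Mki67, Top2a, Cdk1 and Pcna per 10000 made up 21.4% of Lgr5-positive cells (127 of 594, 18.1 to 24.9), 25.8% of the paired cells and 19.98% of all cells with 0 Lgr5 UMIs. Within the Lgr5-positive cells, those with 10 or more Lgr5 UMIs reached 37.0% (60 of 162), and those with 5 to 9 stood at 14.2% (32 of 226). These 2 classes differed in depth, with medians of 54261 and 32641 UMIs, and the 127 cycling Lgr5-positive cells had a median of 59228 UMIs. The part of depth in these shares was not tested. Ribosome biogenesis genes were below 0 in 25 of 26 (median -0.27).

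The largest folds of all came from a few cells. Defa24, an alpha-defensin of Paneth cells, was 169-fold higher (127 to 231), yet 99.7% of its UMIs in Lgr5-positive cells lay in 10 of them. Spink4, a goblet and Paneth cell peptide gene, was 39.9-fold higher (35.8 to 44.6) with 96.3% in 10 cells, and Muc2, the main gel-forming mucin, 27.2-fold higher (19 to 40.2) with 97.7%. Defensin genes are near-identical copies, so the split of reads among them is uncertain. Sval1 (553 against 1 UMIs) and Clps, which encodes colipase (691 against 3 UMIs), had ratios of 460 and 192, with wide counting intervals of 82.3 to 18216 and 65.3 to 932.

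Cells with at least 5 UMIs per 10000 of Muc2, Spink4, Ang4 and 5 defensin genes, a set picked with these values known, numbered 16 among the 594 Lgr5-positive cells (2.69%, 1.55 to 4.34) and 5 among the 851 with 0 Lgr5 UMIs (0.588%, 0.191 to 1.37). In all there were 22 such epithelial cells, and 16 of them were Lgr5-positive. Of those 16, 8 passed the same limit on Muc2 UMIs, 5 on defensin UMIs, 3 of them on both, and 6 on neither, and their Lgr5 ranged from 4 to 48 UMIs. None of the 22 was among the cells with the highest doublet scores. The 2 cells richest in Defa24 both held 3999 UMIs of it. This tie is in the deposited matrix, whose highest entry was 9217.

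These cells were then left out, which by construction lowers the genes that selected them. Defa24 went to 0.863-fold (0.550 to 1.35), Muc2 to 0.889-fold (0.442 to 1.80), Spink4 to 1.88-fold (1.48 to 2.40) and the lysozyme gene Lyz1, also seen in 162 of 175 thinned macrophage-marker cells, from 5.88-fold to 0.246-fold. Cd177 was then 7.90-fold and Wfdc18 4.08-fold higher. Of the 249 higher genes 223 remained among 236 called without these cells, and of the 162 lower genes 155 remained among 166.

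**Figure D4:**
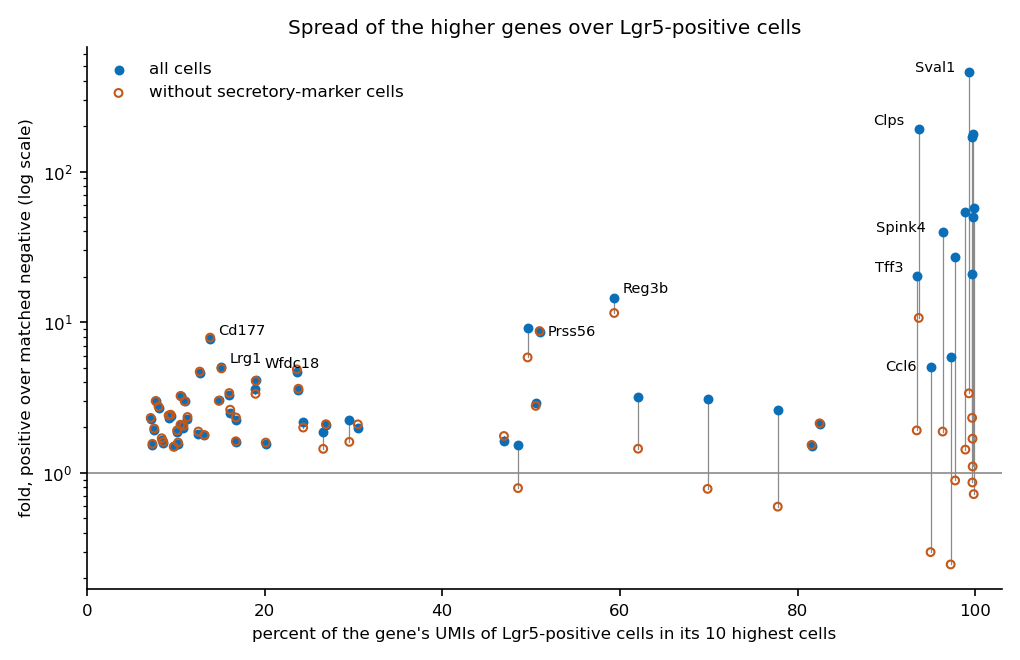
Fold of Lgr5-positive over matched cells with 0 Lgr5 UMIs (log scale) against the percent of each gene's UMIs held by its 10 highest Lgr5-positive cells, for named genes at least 1.5-fold higher, with all cells (filled) and without secretory-marker cells (open). Cd177 (13.9%) kept its fold, while Spink4 (96.3%) went from 39.9 to 1.88.

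Between these poles stood the antimicrobial lectins Reg3b and Reg3g. Reg3b was 14.6-fold higher (11.9 to 18) with 59.4% of its UMIs in 10 cells, and 11.5-fold without secretory-marker cells. Reg3g was 9.11-fold higher (8.13 to 10.2) and was seen at equal depth in 18.9% against 3.03% of cells, and in 3 of 175 macrophage-marker cells. Together they reached 5 UMIs per 10000 in 45 of 594 Lgr5-positive and 8 of 594 comparison cells.

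In the RSPO1-Fc library the same rule, with that library's own minimum of 5960 UMIs, found 68 Lgr5-positive cells among 2729 epithelial cells, and 2128 cells with 0 Lgr5 UMIs. No cell barcode was shared between the libraries. Their matrices differ in software and barcode list, and these differences cannot be told apart from RSPO1-Fc. Whether the libraries also differed in chemistry was not tested. Each library was therefore compared only within itself. Of 6002 genes at 20 CPM there, 227 (3.78%) were at least 1.5-fold higher in Lgr5-positive cells and 324 (5.4%) lower.

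Among 5385 genes at 20 CPM in both libraries, 36 were higher in Lgr5-positive cells of both. This was 42.4% of the 85 higher in control and 21.1% of the 171 higher with RSPO1-Fc. The 85 are those of the 249 higher control genes that reached 20 CPM in both libraries. Of the 5385 genes, 171 were higher with RSPO1-Fc and 85 in control. Over the larger gene sets of each library alone, 3.78% of 6002 genes were higher with RSPO1-Fc and 3.75% of 6637 in control. Across genes the log2 ratios of the 2 libraries correlated at 0.29 (Pearson) and 0.19 (Spearman). Smoc2 was 4.50-fold higher (3.31 to 6.22) in the RSPO1-Fc library beside 2.07-fold in control, Notum 3.24-fold (2.42 to 4.39) beside 1.52-fold, and Prox1 2.17-fold (1.68 to 2.83) beside 1.92-fold. Axin2 was at 1.80-fold (1.49 to 2.17) beside 1.15-fold. Whether these folds differ between the libraries was not tested. Cd177 and Lrg1, broad in control, had 0 UMIs in both sets of RSPO1-Fc cells.

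The lower genes overlapped in a similar way, with 46 lower in both. This was 46% of the 100 in control and 20.2% of the 228 with RSPO1-Fc. Of the 5385 genes at 20 CPM in both libraries, 228 were lower with RSPO1-Fc and 100 in control. Over the larger gene sets of each library alone, 5.4% of 6002 genes were lower with RSPO1-Fc and 2.44% of 6637 in control. Mal was at 0.348 of the comparison level (0.212 to 0.555) in the RSPO1-Fc library and 0.127 in control, Aldh1a3 at 0.301 and 0.132, Krt19 at 0.556 and 0.474, and Anxa1 at 0.522 and 0.473. S100g, at 0.0628 in control, was near even in the RSPO1-Fc library, at 1.01. The cell cycle inhibitor genes Cdkn2a (0.470 and 0.604) and Cdkn2b (0.488 and 0.595) were lower in both, but without lipase-positive cells their log2 ratios in control were -0.41 and -0.45, short of 1.5-fold.

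**Figure D5:**
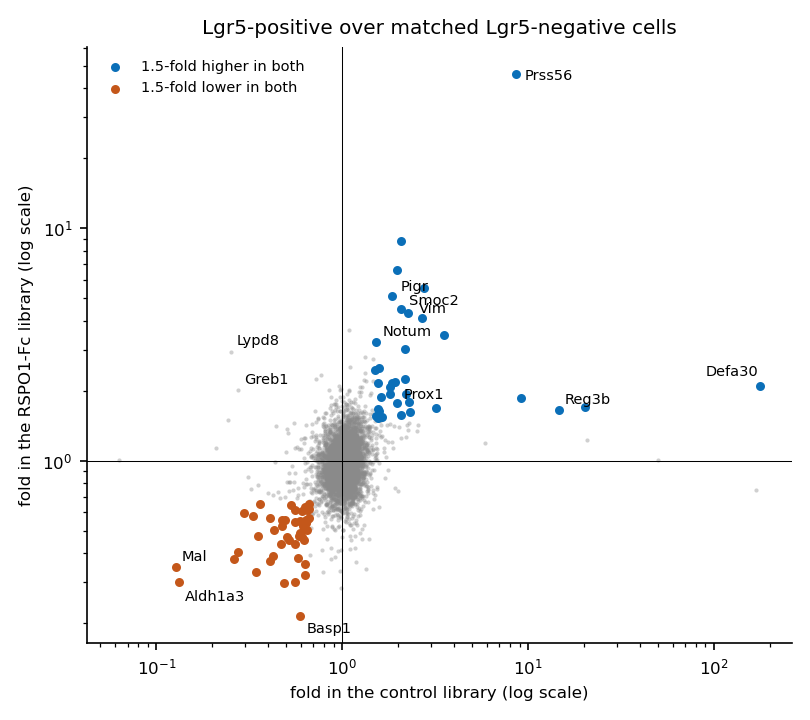
Fold of Lgr5-positive over matched cells with 0 Lgr5 UMIs in the control library (x, log scale) and the RSPO1-Fc library (y, log scale), 1 point per gene with at least 20 CPM in both and UMIs in all sets. Blue marks the 36 genes at least 1.5-fold higher in both and orange the 46 lower in both, while 3 genes, Lypd8, Greb1 and Anxa6, stood on opposite sides.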

How the data were processed

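Organoid cells of 2 cultures were measured as 1 droplet library each. The authors deposited unfiltered, unnormalized UMI counts for each gene and barcode, from reads aligned to mm10 with Cell Ranger 2.1.1 per the labels' protocols. The submitters' processing notes also name Seurat 3.1.1. The control matrix names software version 3.1.0, per the file headers. Libraries held 91675581 (control) and 89437327 (RSPO1-Fc) UMIs. The UMI minimum was 0.1 of the value at percentile 99 among each library's 5000 highest totals.

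Counts were summed over cells, scaled to CPM and compared with python 3.11.15, scipy 1.17.1 and scanpy 1.11.5. Log2 ratios carry a pseudocount of 1 CPM, which understates differences of low genes. Folds carry none. Intervals are exact Poisson, conditional Clopper-Pearson (ratios) and Clopper-Pearson (shares), and the limit for a share of 0 is 3 counts of the total. Genes counted needed 20 CPM in either set and list medians 5 CPM. Neighbours used 20 principal components of 2000 variable genes. Doublets were scored with scrublet and kept, since its own threshold marked 3 of 2251 control cells. The code was tested on simulated data.

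The members, the gene lists and the rule for naming genes were chosen with earlier results of these data known. By that rule came the 15 genes with the highest and the 15 with the lowest ratio, up to 4 genes per list with the largest ratios, and 12 fixed genes. Broad genes with the largest share differences at equal depth (15 higher, 10 lower), and others outside this rule such as Vim, Spock2, Lgals3 and Plac8, were chosen after their values were seen, as were the secretory-marker cells. Some genes that this choice named are not reported here. Alternatives covered matching, cutoffs, depth, doublets, scaling, filters and cell cycle state.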

Additional observations from a re-analysis of the deposited data

Results flagged for a closer look

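Lypd8, which encodes a secreted protein that keeps bacteria from the epithelium, stood at 0.251 of the comparison level in Lgr5-positive control cells and at 2.95 of it in the RSPO1-Fc library. These opposite directions drew attention to it, and the difference between the libraries was not tested. In control, 38.6% of its UMIs in Lgr5-positive cells lay in 10 cells, and its share of cells at equal depth (17.7% against 13.5%) went against the ratio of sums, so no order is read from either. Greb1, an oestrogen-regulated gene, likewise stood at 0.274 in control cells and at 2.00 with RSPO1-Fc, a difference that was not tested either. Anxa6, an annexin, stood at 1.58 in control cells (1.47 to 1.69) and at 0.632 with RSPO1-Fc (0.427 to 0.926), where it rested on 46 and 73 UMIs, and this difference too was not tested.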

How the results depend on the processing

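The median log2 ratio of Wnt target genes lay between 0.14 and 0.24 and that of intestinal stem cell genes between 0.21 and 0.41 over 16 alternatives each. Cd177 lay between 2.64 and 3.57, Krt19 between -1.26 and -0.78 and Mal between -3.91 and -2.39 over 15. Over the same 15, Prss56 lay between 0.61 and 3.39, Notum between 0.19 and 0.75, Car1 between -4.67 and -2.96, Krt14 between -4.11 and -2.38, Aldh1a3 between -3.35 and -1.83 and S100g between -4.47 and -2.55. With filters of 10 CPM for counts and 1 CPM for medians, 383 genes were higher and 280 lower, and at 2-fold 94 and 63. Against all cells with 0 Lgr5 UMIs the medians of S phase and of G2 and M phase genes were -0.10 and -0.10. The G2 and M phase median was -0.48 without cells holding other types' markers, -0.46 with pairs within 10% and -0.56 for members with at least 2 Lgr5 UMIs after thinning, where 275 genes were lower. For these values the cause was not tested.

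Directions turned as follows, all as log2 ratios. Without cells with other types' markers, macrophage genes were at 0.0030 (C1qb), 0.24 (C1qc), 0.028 (Csf1r), 0.27 (Fcer1g), 0.44 (Lyz2) and 0.056 (Ptprc). Without secretory-marker cells, which carried these genes, the goblet median was -0.11, Agr2 -0.33, Ccl6 -1.43, Defa17 -0.10, Defa24 -0.14, Guca2a -0.33, Lyz1 -1.91, Muc2 -0.074 and Reg4 -0.72. With the cutoff applied after thinning, Defa22 was at -0.77 and Mptx2 at -0.52. Without cells holding 2 or more Pnliprp1 and Pnliprp2 UMIs per 10000, Ceacam10 was at -0.44, Cldn5 -1.28, Defa21 -0.27, Defa30 -0.037, Dkk3 -0.19, Mptx2 -1.20 and Mt3 -0.091, and the cause was not tested. The alternatives on secretory-marker cells, pairs within 10%, the cutoff after thinning, Pnliprp cells and thinned neighbours were chosen after seeing the data. No paired analysis was possible because each group held 1 library. Depth limits low genes, and 68 Lgr5-positive RSPO1-Fc cells give wide intervals.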

Other observations

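Of the metallothionein genes, which bind zinc and copper, Mt2, Mt3 and Mt4 passed 1.5-fold upward in Lgr5-positive cells of both libraries, while Mt1 stood at 1.39-fold in each. They were singled out after their values were seen. Mt3 was 1.80-fold (1.78 to 1.83) and Mt4 1.96-fold higher (1.93 to 1.99) in control, beside 2.08-fold (1.58 to 2.76) and 6.64-fold (3.14 to 16.2) in the RSPO1-Fc library. Mt2 stood at 2.07-fold and 1.56-fold. The log2 ratio of Mt3 turned to -0.091 when control cells holding 2 or more Pnliprp1 and Pnliprp2 UMIs per 10000 were left out.

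H19, an imprinted growth-restraining RNA, had 282 UMIs in Lgr5-positive and 7 in comparison control cells, a ratio of 33.5 (16.1 to 84.2), with 67.0% of these UMIs in 10 cells. Cdkn1c, a cell cycle inhibitor gene that is also imprinted, was more widely spread: it was 2.26-fold higher (2.18 to 2.34) with 16.8% in 10 cells.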
